A study of Rattus norvegicus with 42 samples.

Results

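The transcripts described here are cytoglobin (Cygb), neuroglobin (Ngb) and the blood globins of the alpha (Hba) and beta (Hbb) families in the hippocampus of the neonatal rat. They were chosen by gene symbol, as every transcript named Cygb or Ngb or with a symbol starting in Hba or Hbb, which gave 8 of the 15516 transcripts of the count table: Cygb, Ngb, Hba1, Hba-a1, Hba-a2, Hbb, Hbb-b1 and Hbb-bs. Cygb was taken up because its counts change after phenobarbital in these same animals, so its values after phenobarbital are given as a description with no test. Male Sprague Dawley pups were injected intraperitoneally on postnatal day 7 with saline (VEH), with phenobarbital at 75 mg/kg (PB) or with levetiracetam at 200 mg/kg (LEV) and were returned to the dam. Both drugs are antiseizure medicines, PB a barbiturate that strengthens GABA-A receptor currents and LEV a ligand of the synaptic vesicle protein SV2A. At 72 h the pups were killed with pentobarbital and perfused through the heart with cold PBS, and RNA of the dissected hippocampus was sequenced, 1 library per animal. The analysis held 13 VEH, 14 PB and 14 LEV animals, with 1 pup per litter in each treatment, and left out a VEH animal that its label marks as excluded.

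The pups came from animals bought in 2 orders, and the labels do not say which animal belongs to which. The sample codes have 2 forms. Animals 1 to 6 of each treatment carry double-letter codes (CV, CP, CL) and animals 7 to 14 single-letter codes (C, P, L). The form of the code was used as the batch, with 18 double-letter animals (6 per treatment) and 23 single-letter animals (7 VEH, 8 PB and 8 LEV). Library totals lay between 9499492 and 14488134 estimated counts, with a median of 11319144. Of the markers of hippocampal principal neurons, every animal had at least 447 counts of Prox1, the granule cell transcription factor, and at least 2680 of Neurod6, a factor of pyramidal neurons. Spink8, another marker of that list, was near the floor, with 0 counts in 11 animals and at most 6. Markers of choroid plexus varied widely, from 342 to 89149 summed normalized counts, as did ribosomal RNA between the code forms.

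Globins are heme proteins that bind oxygen and other small gases. The alpha and beta chains form the hemoglobin of red blood cells, whose immature stages still hold large amounts of globin mRNA, so these transcripts in a dissected tissue are usually read as those of blood left in the vessels. Cygb is found in fibroblast-like cells, pericytes and a subset of neurons, and can scavenge nitric oxide and reactive oxygen, with reduction by cytochrome b5 and its reductase. Ngb is a neuronal globin that has been linked to mitochondria, cytochrome c and the tolerance of low oxygen.

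In rn6 coordinates, Cygb (NM_130744) lies on chromosome 10 from 105618325 to 105628092 and Ngb (NM_033359) on chromosome 6 from 111126259 to 111131700. The beta genes lie together on chromosome 1, Hbb-b1 (NM_198776) from 168945567 to 168953028, Hbb-bs (NM_001111269) from 168964202 to 168965569 and Hbb (NM_033234) from 168971269 to 168972681. The alpha genes lie on chromosome 10, Hba-a1 (NM_001013853) from 15577249 to 15577978 and Hba1 (NM_013096) from 15602794 to 15603650. Hba-a2 (NM_001007722) was annotated from 15577166 to 15603650, a span that covers both other alpha genes. Counts were estimated per transcript with reads shared among similar transcripts. The values of Cygb, Ngb and Hba-a1 were whole numbers in every library, those of Hba1, Hba-a2 and Hbb-bs in none, and 95.2% of those of Hbb and 73.8% of those of Hbb-b1 were not whole. The split of counts among the alpha and among the beta transcripts is therefore uncertain.

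The 250 bases before the transcription start are shown for the most abundant alpha and beta transcripts, for Hba-a2, which behaved differently from the other blood globins, and for Ngb. They come from RefSeq on the GRCr8 build, all on the minus strand and written 5′ to 3′, with capitals where 1 of the 4 motifs named after them matched on either strand. RefSeq now names NM_013096 Hba-a1 and NM_001013853 Hba-a3. The table matched 7 of the 8 transcripts, without Cygb.
Hba1, chr10:15842581-15842830: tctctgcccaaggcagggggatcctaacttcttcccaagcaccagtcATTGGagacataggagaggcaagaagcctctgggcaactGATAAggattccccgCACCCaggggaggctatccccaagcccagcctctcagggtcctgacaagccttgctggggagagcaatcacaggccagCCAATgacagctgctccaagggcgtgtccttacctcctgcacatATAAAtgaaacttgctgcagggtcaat
Hba-a2, chr10:15829139-15829388: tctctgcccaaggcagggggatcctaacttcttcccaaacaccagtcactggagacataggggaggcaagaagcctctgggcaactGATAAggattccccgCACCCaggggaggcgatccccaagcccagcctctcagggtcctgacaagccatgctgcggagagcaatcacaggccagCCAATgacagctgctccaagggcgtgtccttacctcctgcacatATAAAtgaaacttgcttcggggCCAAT
Hbb, chr1:167663722-167663971: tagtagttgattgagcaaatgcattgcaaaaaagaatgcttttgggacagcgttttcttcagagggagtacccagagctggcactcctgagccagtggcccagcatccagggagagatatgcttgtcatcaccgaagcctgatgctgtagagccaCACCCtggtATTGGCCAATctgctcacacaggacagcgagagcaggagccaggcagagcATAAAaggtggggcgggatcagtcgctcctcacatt
Ngb, chr6:112480787-112481036: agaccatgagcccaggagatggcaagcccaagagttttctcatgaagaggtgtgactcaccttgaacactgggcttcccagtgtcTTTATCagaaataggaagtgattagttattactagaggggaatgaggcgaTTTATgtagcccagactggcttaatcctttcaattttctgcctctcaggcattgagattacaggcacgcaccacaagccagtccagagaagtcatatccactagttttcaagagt

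CCAAT, a common promoter element, was found in all 6 blood globin windows and not in that of Ngb, and in 34.2% of the 27457 windows of the same length in the table. CACCC, the element bound by Klf1-type factors, was in 5 of the 6 blood globin windows and in 49.4% of all windows. ATAAA, which resembles the core promoter box near a start, stood between positions -36 and -23 from the start on the plus strand in every blood globin window, while Ngb held it on the minus strand, and 39.0% of all windows held it on either strand. GATAA, as bound by the red cell factor Gata1, was in the Hba1 and Hba-a2 windows, in that of Ngb and in 23.3% of all windows, and in Ngb it overlapped a match to ATAAA. The Hba1 and Hba-a2 windows were identical at 96.4% of positions, and those of Hbb-b1 and Hbb-bs at 94.0%. These matches describe letters in the window and nothing more.

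Cygb was lower in PB animals than in VEH animals. Normalized counts (counts scaled to a common library size) of Cygb ran from 279.5 to 369 in VEH with a median of 304, from 195 to 299 in PB with a median of 246, and from 260 to 343 in LEV with a median of 286. Each of the 14 PB animals had less Cygb than the VEH average for its code form, and the PB and VEH ranges overlapped between 279.5 and 299. The means were 307 ± 25.2 (SD, n = 13) in VEH, 243 ± 31.2 (SD, n = 14) in PB and 295 ± 25.0 (SD, n = 14) in LEV.

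The fitted log2 fold change of Cygb in PB against VEH was -0.34 (SE 0.05), a fold of 0.792. A transcript was called where it had an adjusted p under 0.05 and a log2 fold change of at least 0.32 in size, and in this comparison 79 of 13062 tested transcripts (0.605%) were called, 34 of them (0.260%) as lower. No call is given for Cygb, which this comparison chose. Its fold change was close to that size, and lay under it without VEH animal 3 (-0.32), without PB animal 8 (-0.319), with all 14 VEH animals (-0.312) and in double-letter animals alone (-0.222). In whole tissue, fewer cells that make Cygb and less Cygb RNA per cell cannot be told apart.

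The difference was larger among single-letter animals. Among single-letter animals, Cygb ran from 279.5 to 323 in VEH and from 195 to 248 in PB, with no overlap. Among double-letter animals it ran from 282 to 369 in VEH and from 246 to 299 in PB, and the ranges overlapped. The log2 fold change of PB against VEH was -0.43 (SE 0.06) in the former and -0.22 (SE 0.07) in the latter, a difference of 0.21 (SE 0.09), given without a test.

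Cygb in LEV animals did not differ from VEH beyond the spread between animals. The log2 fold change was -0.06 (SE 0.05, 95% interval -0.15 to 0.04, adjusted p = 0.932 from edgeR's quasi-likelihood fit, Benjamini-Hochberg), with 10 of 14 LEV animals below the VEH mean of their form. The LEV log2 fold changes of the forms differed by -0.0009 (SE 0.09, edgeR adjusted p = 0.998 after Benjamini-Hochberg). Against LEV, Cygb in PB was lower by a log2 fold change of -0.28 (SE 0.05), in 14 of 14 animals below the LEV mean of their form. This last value is also given without a test, since the PB animals chose the gene. The PB and LEV comparisons with VEH use the same VEH animals.

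Ranked by mean over the 6 combinations of treatment and code form, Cygb was lowest in single-letter PB animals (222 ± 19.0, SD, n = 8) and next in double-letter PB animals (272 ± 18.0, SD, n = 6). The gap between them, 49.9, was larger than either SD. The other 4 combinations followed at 287 (LEV, single-letter), 299 (VEH, single-letter), 305 (LEV, double-letter) and 317 (VEH, double-letter), with every gap below the larger SD of its neighbours. The excluded VEH animal had 222 normalized counts of Cygb, a value within the range of the PB animals.

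**Figure D1:**
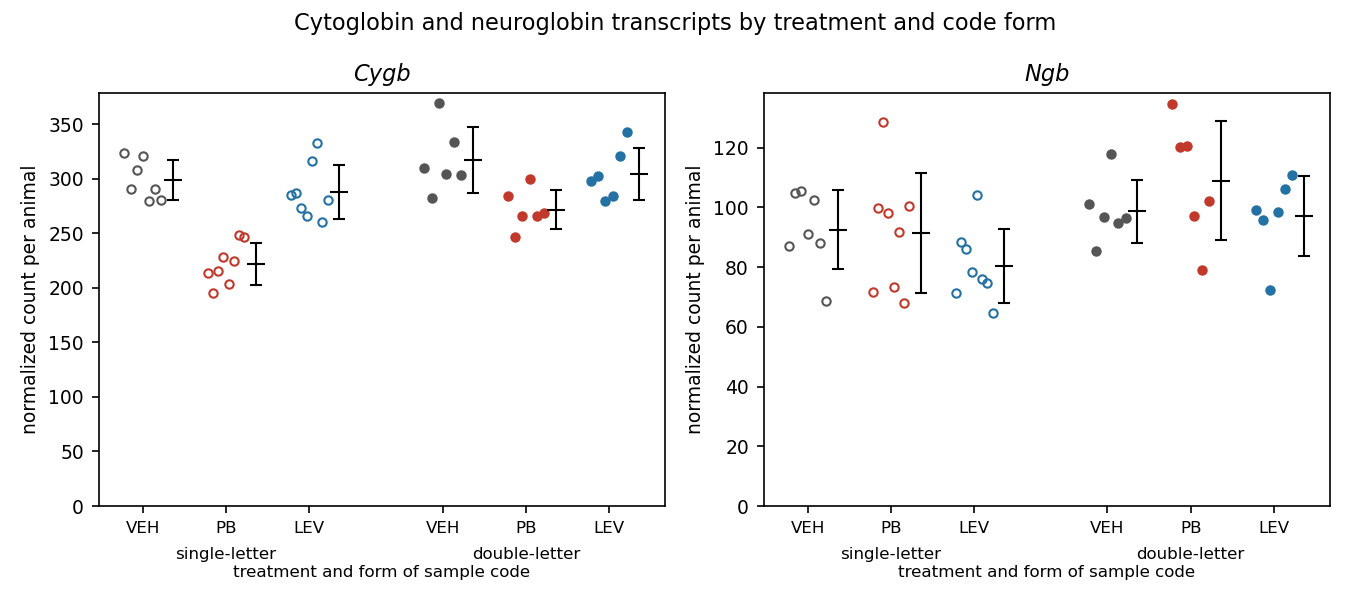
Normalized counts of Cygb (left) and Ngb (right), 1 point per animal, for VEH, PB and LEV (gray, red, blue) by form of sample code (open points, single-letter; filled, double-letter), with bars for mean and SD. The 8 single-letter PB animals lie below all single-letter VEH animals for Cygb, and the 3 groups overlap for Ngb.

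Ngb overlapped across the 3 treatments. It ran from 68.7 to 118 normalized counts in VEH (median 96.3), from 67.8 to 135 in PB (median 98.8) and from 64.5 to 111 in LEV (median 87.1). The means were 95.3 ± 12.0 (SD, n = 13), 98.9 ± 21.3 (SD, n = 14) and 87.6 ± 14.9 (SD, n = 14). The log2 fold change of PB against VEH was 0.06 (SE 0.09), given as a description. LEV against VEH gave -0.12 (SE 0.09, 95% interval -0.30 to 0.06, edgeR quasi-likelihood adjusted p = 0.923, Benjamini-Hochberg), and PB against LEV gave 0.18 (SE 0.09, adjusted p = 0.265 by the same edgeR test). Ngb ranked from 80.4 ± 12.3 (SD, n = 8) in single-letter LEV animals to 109 (79.0 to 135, n = 6) in double-letter PB animals, and every step between neighbours was below the larger SD.

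Hba1, Hbb and Hbb-b1 separated the animals by code form rather than by treatment. Hba1, the most abundant of the blood globins, ran from 97.0 to 4454 normalized counts in the 23 single-letter animals (median 477) and from 5234 to 12828 in the 18 double-letter animals (median 8311), with no overlap. Hbb, the main beta chain, ran from 70.0 to 1837 (median 254) and from 1947 to 4626 (median 3077), again with no overlap. Hbb-b1 ran from 11.9 to 328 and from 332 to 938 and did not overlap either. Such a separation was not limited to globins. The ribosomal RNA precursor Rn45s had at most 762 normalized counts in single-letter and at least 1229 in double-letter animals. Rn28s had at most 140539 and at least 192419. The share of all transcripts with no overlap between the forms was not counted. Hbb-bs overlapped by 1 animal in each form. For Hba-a1, 5 double-letter animals lay below the single-letter maximum and 2 single-letter animals above the double-letter minimum.

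Of the 8 globin transcripts, 5 were called between the code forms, all of them higher in double-letter animals, where 538 of 13062 transcripts (4.12%) were called and 320 (2.45%) were higher. The log2 fold change was 3.17 for Hba1 (SE 0.33, edgeR adjusted p = 9.14e-10, Benjamini-Hochberg), a fold of 9.02. It was 3.03 for Hbb-b1 (SE 0.27, edgeR adjusted p = 3.46e-11), 2.99 for Hbb-bs (SE 0.27, edgeR adjusted p = 4.42e-11) and 2.88 for Hbb (SE 0.29, edgeR adjusted p = 5.76e-10). Hba-a1, with few counts, gave 2.60 (SE 0.31, edgeR adjusted p = 1.66e-08). By size of the rise these 5 stood between ranks 3 and 13 of the 13062 transcripts.

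Hba-a2 was the exception among the blood globins, with 2.88 to 292 normalized counts in single-letter animals (median 65.6) and 35.9 to 101 in double-letter animals (median 71.3). Its log2 fold change between the forms was -0.36 (SE 0.38, edgeR quasi-likelihood adjusted p = 0.514, Benjamini-Hochberg). Hba1 made up 98.2% to 99.1% of the alpha globin counts in double-letter animals and 51.0% to 98.9% in single-letter animals. Given the shared reads and the span of its annotation, how Hba-a2 counts arose was not tested.

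Cygb and Ngb differed little between the code forms. Cygb was higher in double-letter animals by a log2 fold change of 0.15 (SE 0.04, edgeR adjusted p = 0.00269, Benjamini-Hochberg) and Ngb by 0.21 (SE 0.07, edgeR adjusted p = 0.0279), and neither reached the fold limit. With no fold limit 30.2% of all transcripts passed between the forms.

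Other transcripts moved with the code form in the same animals. Alas2, the heme synthesis enzyme of red cells, rose by a log2 fold change of 2.51 (SE 0.28, edgeR adjusted p = 6.34e-09, Benjamini-Hochberg), and 2 of the 7 tested red cell transcripts other than globins were higher in double-letter animals, against 2.45% of all transcripts. The ribosomal RNA precursor Rn45s rose by 3.19 (SE 0.19) and Rn28s by 3.09 (SE 0.20), and 4 of 6 tested skeletal muscle transcripts rose as well, against the same 2.45%. Of the white blood cell list, 1 transcript was tested, NM_001109890 of Ptprc, the common white cell antigen, and it was lower by a log2 fold change of -0.75, while counts summed over the gene had medians of 61 in single-letter and 52.5 in double-letter animals. The part of the ribosomal RNA, of the purchase order or of the perfusion in the difference between forms was not tested.

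**Figure D2:**
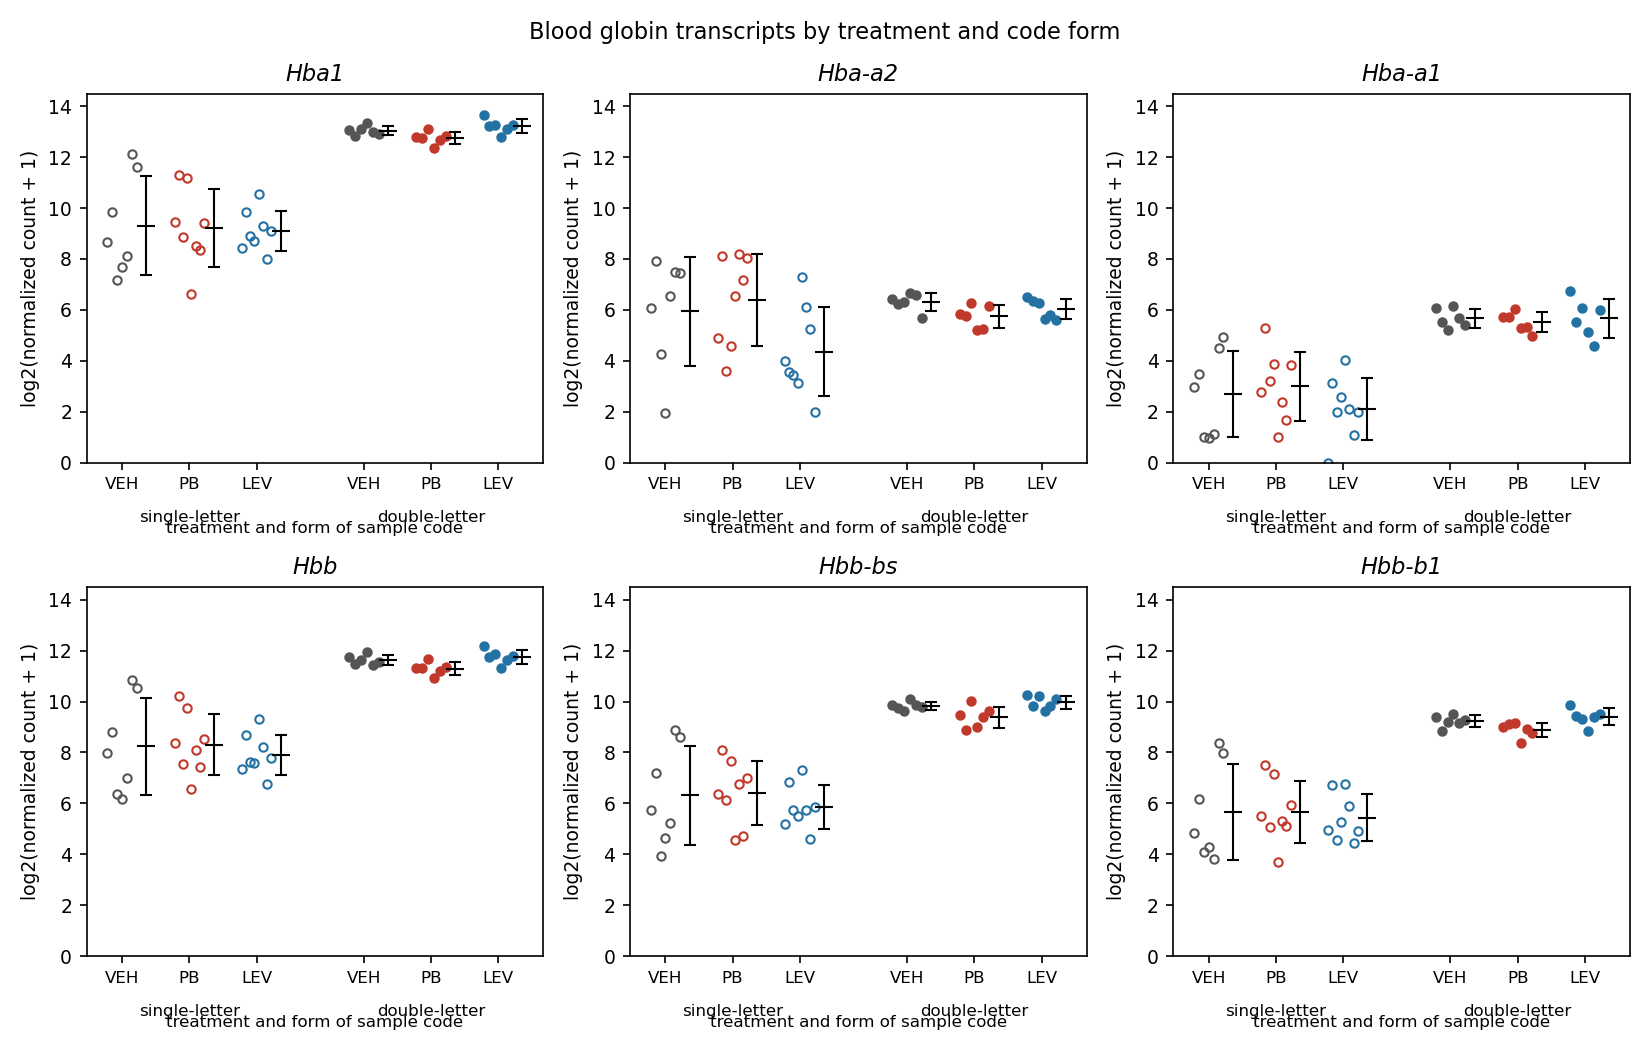
Normalized counts of the 6 blood globin transcripts on a log2 scale (1 added), 1 point per animal, by treatment (gray VEH, red PB, blue LEV) and form of sample code (open, single-letter; filled, double-letter), with bars for mean and SD of the log2 values. Hba1, Hbb and Hbb-b1 separate the forms with no overlap, and Hba-a2 does not.

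Within a code form, single-letter animals varied far more than double-letter animals. The highest Hba1 value was 45.9 times the lowest among single-letter animals and 2.45 times among double-letter animals. Among single-letter VEH animals, animals 13 and 14 had far more Hba1 (4454 and 3137) than the other 5 (at most 906). Summed over all 6 transcripts, blood globins took 0.00240% to 0.0644% of counts in single-letter animals and 0.0690% to 0.172% in double-letter animals. The ratio of alpha to beta counts lay between 1.45 and 2.09 in all 41 animals (median 1.83), while their summed normalized counts ran from 272 to 19794, and this ratio compares animals, since counts were not set per transcript length. The share, the sum and the ratio leave out LOC100134871, which RefSeq names Hbbl1 and whose symbol the choice of transcripts did not take in. Its median was 219 normalized counts in single-letter and 2495 in double-letter animals, so the beta part is incomplete.

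Within a code form, the blood globins overlapped between treatments. Among double-letter animals Hba1 averaged 8452 ± 1048 in VEH, 6997 ± 1182 in PB and 9712 ± 1844 in LEV (SD, n = 6 each), and the 3 ranges overlapped. Among single-letter animals it averaged 1361 ± 1724 in VEH (SD, n = 7), 934 ± 938 in PB and 631 ± 397 in LEV (SD, n = 8 each). The fitted log2 fold change of PB against VEH was -0.43 (SE 0.39) for Hba1 and -0.43 (SE 0.35) for Hbb, given as a description. Single animals decided these values, which became -0.03 and -0.11 without VEH animal 13, -0.20 for both without VEH animal 14, and -0.66 for both without PB animal 8.

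In LEV against VEH, 0 of the 8 globin transcripts were called, with 0 of 13062 transcripts called in all (0%), 763 (5.84%) at an unadjusted p under 0.05, and 5 called with DESeq2. The blood globins lay between -0.89 (SE 0.46, edgeR adjusted p = 0.844, Benjamini-Hochberg) for Hba-a2 and -0.29 (SE 0.38, edgeR adjusted p = 0.960) for Hba-a1. For Hba1 the 95% interval ran from -1.23 to 0.30, which holds both no difference and a large fall. Between PB and LEV, 0 of the 7 globin transcripts tested were called, against 76 of 13062 transcripts (0.582%). The largest difference there was that of Hba-a2, 0.94 (SE 0.46, edgeR adjusted p = 0.252, Benjamini-Hochberg).

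The LEV effect on the blood globins was not called different between the forms. The difference of the LEV log2 fold change, double-letter minus single-letter, was positive for all 6 transcripts, from 1.21 to 1.42, with edgeR adjusted p from 0.340 to 0.608 (Benjamini-Hochberg). For Hbb-bs it was 1.42 (SE 0.65, 95% interval 0.149 to 2.698, edgeR unadjusted p = 0.0345), an interval that lies above 0, and for Hba1 it was 1.31 (SE 0.77, 95% interval -0.19 to 2.81).

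**Figure D3:**
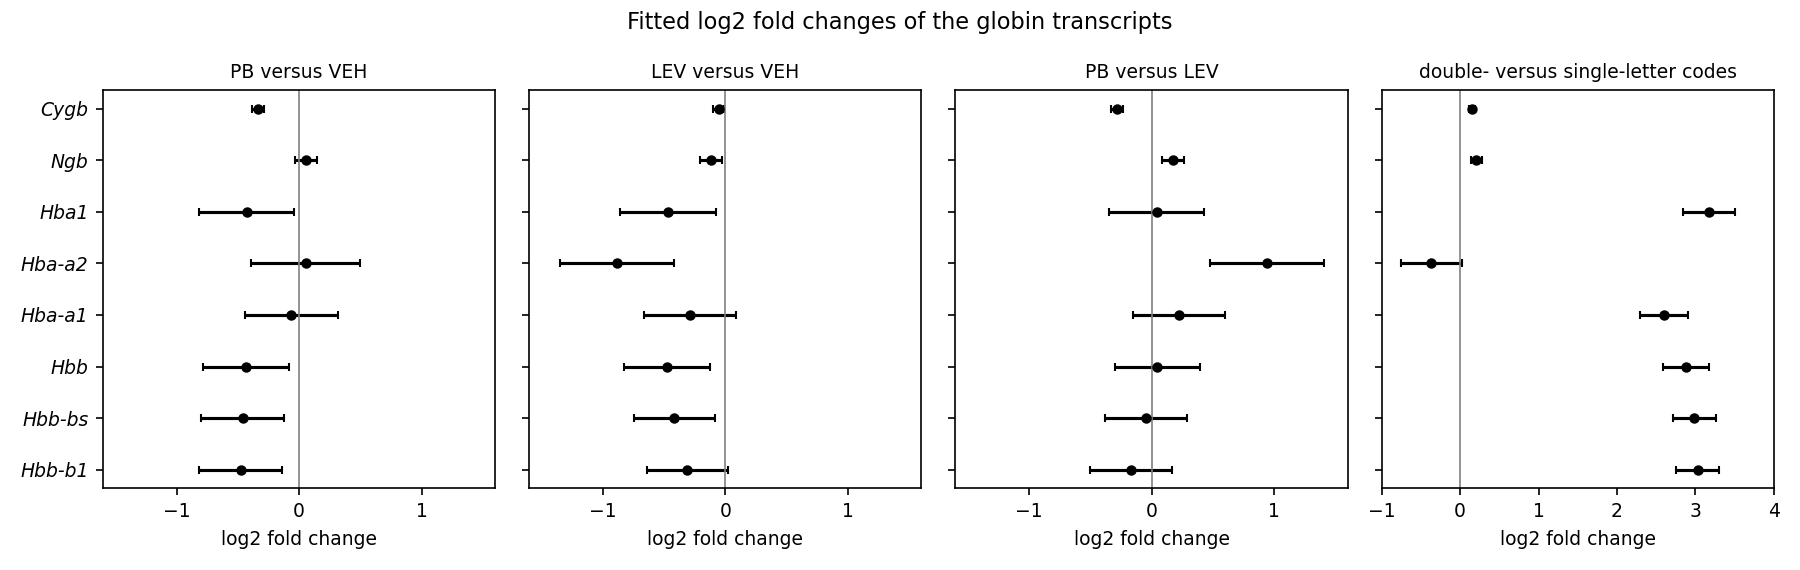
Fitted log2 fold changes of the 8 globin transcripts with standard errors as bars, for PB against VEH, LEV against VEH, PB against LEV and double-letter against single-letter codes (a wider axis in the last panel). Cygb stands at -0.34 in the first panel, and 5 blood globins lie between 2.60 and 3.17 in the last.

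Animals rich in Hba1 were also rich in Alas2, while the relations of Hba1 with Cygb and with Ngb did not pass the test. With the means of treatment and code form removed, Hba1 and Alas2 correlated over the 41 animals with Pearson's r = 0.876 (permutation p = 1e-05, the lowest value possible with 100000 permutations, adjusted 4e-05 over 4 relations) and Spearman's rho = 0.775 (permutation p = 1e-05, adjusted 4e-05). Without the 2 animals farthest from the median of Hba1, r was 0.851. Within single-letter animals r was 0.884 (permutation p = 1e-05) and within double-letter animals 0.701 (permutation p = 0.00336), falling to 0.471 without its 2 farthest animals. Hba1 and Cygb gave r = -0.045 and rho = 0.046 (permutation p = 0.785 for each, adjusted 0.785 for each), -0.114 without the 2 farthest animals, -0.059 within single-letter and -0.012 within double-letter animals. Hba1 and Ngb gave r = 0.10 (permutation p = 0.595, adjusted 0.785) and rho = 0.214 (permutation p = 0.215, adjusted 0.43), 0.049 without the 2 farthest animals, and 0.092 and 0.335 within single-letter and double-letter animals, or 0.34 and 0.371 without the 2 farthest of each. Cygb and Ngb gave r = 0.141 (permutation p = 0.407, adjusted 0.785) and rho = 0.158 (permutation p = 0.348, adjusted 0.464), 0.185 without the 2 farthest animals, and 0.081 and 0.233 within the forms.

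**Figure D4:**
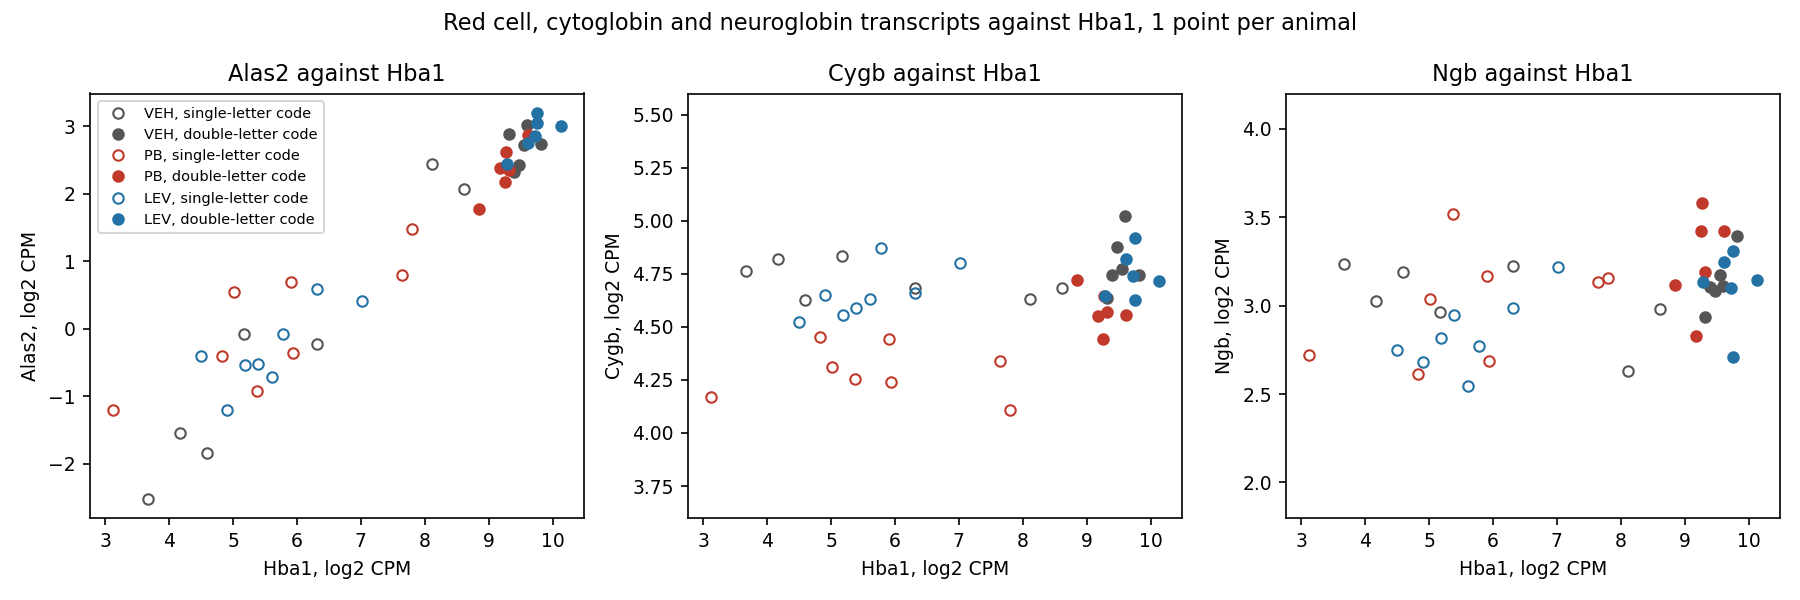
Alas2, Cygb and Ngb (log2 CPM) against Hba1 (log2 CPM), 1 point per animal, by treatment (gray VEH, red PB, blue LEV) and form of sample code (open, single-letter; filled, double-letter). Alas2 follows Hba1 within both forms, and Cygb and Ngb scatter widely at any level of Hba1.

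Among themselves, the blood globins other than Hba-a2 varied together from animal to animal once the means of treatment and form were removed, with r from 0.87 to 0.979 over 41 animals, and Hba-a2 with the others from 0.382 to 0.499. These transcripts share reads and are given as a description. Of the 11019 transcripts with a mean of at least 50 normalized counts, the most like Hba1 were Hbb (r = 0.979), LOC100134871, which RefSeq names Hbbl1 (0.975), Hbb-b1 (0.961), Hbb-bs (0.951) and Alox15, a lipoxygenase (0.906), and the most opposite were Lrrtm2 (-0.609), Fezf2 (-0.607) and Zbtb24 (-0.56). The most like Cygb were Casp9 (0.617), Tmem38a (0.575), Cacnb1 (0.57), Thrb (0.551) and Syn2 (0.543), and the most opposite were Tprkb (-0.608) and St13 (-0.568). The most like Ngb were Arg2 (0.566), Ppil1 (0.566), Polr3e (0.556), Qsox1 (0.538) and Slfn2 (0.523), and the most opposite included Steap3 (-0.593) and Farsb (-0.548).

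Of the lists of genes that work with these globins or respond to low oxygen, 0 transcripts were called in either drug against VEH. Over all tested transcripts 0.605% were called in PB and 0% in LEV against VEH, so 0 in lists of 11 to 34 transcripts is close to that share. Of 31 tested transcripts of the cytochrome b5 reducing system and of peroxide and superoxide defence, 0 were called in PB against VEH, where the median log2 fold change was -0.04 against 0.005 over all tested transcripts. Cyb5r3, the cytochrome b5 reductase, gave -0.15 (SE 0.04, edgeR adjusted p = 0.0167, Benjamini-Hochberg), under the fold limit. Of 16 tested transcripts of nitric oxide synthesis and its receptor and of 23 of the Ngb partners and mitochondrial cell death, 0 were called. Gpr37, a receptor of that last list, gave -0.18 (SE 0.05, edgeR adjusted p = 0.0340). Heme synthesis (11 tested) and heme breakdown and iron handling (15 tested) had 0 called, and the iron exporter Slc40a1 gave -0.26 (SE 0.05, edgeR adjusted p = 0.00361) under the fold limit. Of 34 hypoxia response transcripts 0 were called in PB against VEH, where their median log2 fold change was 0.096 against 0.005 over all tested transcripts. In that comparison 12 of the 34 had an unadjusted p under 0.05 (edgeR), against 20.2% of all tested transcripts. Pgk1, a glycolytic enzyme, gave -0.13 there (SE 0.03, edgeR adjusted p = 0.0102), and a minor transcript of Aldoa, another such enzyme (NM_001271536, mean 827 normalized counts, with a median of 10546 counts for the gene), gave -0.27 (SE 0.08, edgeR adjusted p = 0.0395), both under the fold limit. That Aldoa transcript was called between PB and LEV, at -0.38 (SE 0.08, edgeR adjusted p = 0.00336). In LEV against VEH, 0 transcripts of any of these lists were called. Myoglobin (Mb), the muscle globin, had 0 to 7 counts per animal and was not tested.

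Markers of cells that can carry Cygb were read beside it. Of 17 tested transcripts of pericytes, smooth muscle and fibroblasts 0 were called in PB against VEH, beside 0.605% of all tested transcripts, with a median log2 fold change of -0.001. Their summed level ran from 7558 to 9863 in VEH and from 7601 to 10113 in PB among single-letter animals. In double-letter animals the sum ran from 7918 to 10772 in VEH and, more widely, from 5179 to 11379 in PB. Of 21 tested transcripts of GABA neurons 2 fell after PB (0.260% of all tested transcripts were called lower), Sst, a neuropeptide, by -0.38 (SE 0.07, edgeR adjusted p = 0.00183, Benjamini-Hochberg) and Pvalb, a calcium-binding protein, by -0.83 (SE 0.22, edgeR adjusted p = 0.0188). Calb2, another calcium-binding protein of the list, rose by 0.321 (SE 0.098, edgeR adjusted p = 0.0432), just under the fold limit. The median log2 fold change of the list was -0.16. Its summed level ran from 18441 to 23981 in VEH and from 18376 to 21599 in PB among single-letter animals, which overlapped. Among double-letter animals it ran from 22501 to 23751 in VEH and from 18122 to 22232 in PB, with no overlap. The part of either list in the Cygb difference was not tested.

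Skeletal muscle transcripts also fell with PB, 4 of 6 tested against 0.260% of all transcripts, Atp2a1, a calcium pump, by -2.46 (SE 0.45, edgeR adjusted p = 0.00105, Benjamini-Hochberg), Myh4 by -2.06 (SE 0.44, edgeR adjusted p = 0.00426), Acta1 by -0.44 (SE 0.11, edgeR adjusted p = 0.0102) and Pvalb as above. Myh3, another of the 6, went the other way, by 0.49 (SE 0.21, edgeR adjusted p = 0.160), and was not called. The summed level of the muscle list ran from 473 to 639 in double-letter VEH animals and from 238 to 348 in double-letter PB animals, with no overlap. Among single-letter animals it ran from 206 to 319 in VEH and from 185 to 278 in PB, which overlapped. The part of muscle transcripts in the Cygb difference was not tested.

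In the other lists, red cell transcripts other than globins (7 tested) had 0 called after either drug, beside 0.605% (PB) and 0% (LEV) of all tested transcripts. Alas2 gave -0.43 (SE 0.35, edgeR adjusted p = 0.529, Benjamini-Hochberg) in PB and -0.34 (SE 0.34, edgeR adjusted p = 0.949) in LEV. Fech, the last enzyme of heme synthesis, gave -0.12 (SE 0.04, edgeR adjusted p = 0.0889) in PB, and Alas1, its first enzyme outside red cells, 0.07 (SE 0.04, edgeR adjusted p = 0.856) in LEV. Haptoglobin (Hp), which binds free hemoglobin, gave 0.23 in LEV (SE 0.11, edgeR adjusted p = 0.844). A minor transcript of Vegfa, a growth factor induced by low oxygen (NR_105011, mean 36.5 normalized counts, with a median of 2258 counts for the gene), gave 0.82 in PB (SE 0.30, edgeR adjusted p = 0.0962) and 0.97 in LEV (SE 0.29, edgeR adjusted p = 0.526).

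Endothelium (10 tested) and choroid plexus (12 tested) had 0 called in either drug against VEH, beside 0.605% (PB) and 0% (LEV) of all tested transcripts. Cldn5, a tight junction protein of endothelium, gave -0.17 in PB (SE 0.06, edgeR adjusted p = 0.0821, Benjamini-Hochberg). The choroid plexus list had a median log2 fold change of 0.61 in PB and 0.71 in LEV, with Otx2 at 0.84 (SE 0.72) in PB and Kcne2 at 0.67 (SE 0.46) in LEV. Of 6 tested markers of principal neurons, Zbtb20 was higher in PB than in LEV by 0.46 (SE 0.12, edgeR adjusted p = 0.0176) and was not called in either drug against VEH.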

How the data were processed

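Hippocampal RNA of 42 animals was sequenced as paired-end libraries (NEBNext Ultra, no strand setting given in the sources used here). According to the methods and the submitters' processing notes, the authors trimmed adaptors, dropped poor reads, mapped to rn6 with STAR 2.7.3a and estimated counts per transcript with the Partek E/M module. The values deposited by the authors are these estimated counts, not normalized, and 13.7% of them are not whole. Similar transcripts share reads in such estimates. The authors' deposited table of comparisons holds p-values, fold changes and group means and was not used.

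Rounded counts were tested with edgeR 4.0.16 under R 4.3.3 (TMM normalization, filterByExpr by treatment, glmQLFit and glmQLFTest). The model held the 3 treatments and the form of the sample code as an additive term, over 41 animals and 13062 tested transcripts, with Benjamini-Hochberg adjustment. An adjusted p under 0.05 with a fold of at least 1.25 counted as called. The study subtracted batch effects before its own test, while here they were a model term, and the subtraction was an alternative. Normalized counts are rounded counts scaled to the mean effective library size. Relations used log2 CPM (prior count 2) with the means of treatment and code form removed and 100000 permutations within these cells.

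The members, lists and comparisons were chosen with earlier results of these data known. Named are the 8 globin transcripts, from each list the transcripts called in a treatment comparison and, of those with the smallest p against VEH, the ones that bear on globins, and the 5 most like and 3 most opposite to Cygb, Ngb and Hba1, where 2 entries of Tprkb count as 1 name. Some transcripts that this rule names are not reported here. Rn45s, Rn28s and Ptprc were named after their values were seen. Animals are separate samples, so p-values measure the spread between animals. Litter was not a term of the model, since the labels do not give it. Alternatives were DESeq2 1.42.0, other size factors, filters and limits, models without the form or with its interaction, the subtraction, each form alone, all 14 VEH animals, a block on animal number, Hba1 as a covariate and each animal left out.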

Additional observations from a re-analysis of the deposited data

Results flagged for a closer look

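In 48 groups of 6 to 8 animals (8 transcripts, 3 treatments, 2 code forms), 2 animals stood apart from the rest of their group, where chance would give about 2.4. Hba-a2 reached 157 normalized counts in LEV animal 11, with the other 7 single-letter LEV animals between 2.98 and 68.2. Hba-a1 reached 37.8 in PB animal 8, with the other 7 single-letter PB animals between 0.990 and 13.7. Chance places about 1 group in 20 in this class, and the number found was close to that.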

How the results depend on the processing

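Cygb in PB against VEH kept its direction in all 16 alternatives, from -0.43 in single-letter to -0.22 in double-letter animals alone, and with each animal left out in turn it ran from -0.36 to -0.32. It was under the fold limit in double-letter animals (-0.222), with all 14 VEH animals (-0.312), without VEH animal 3 (-0.32) and without PB animal 8 (-0.319). In LEV against VEH, Hba1 became -0.11, Hbb -0.19, Hbb-b1 -0.04 and Hbb-bs -0.17 without VEH animal 13. The 8 form differences kept direction and call in all 6 alternatives. For LEV against VEH, Ngb ran from -0.20 to -0.02.

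The number of transcripts called in PB against VEH, 79, became 119 after the subtraction of batch effects, 17 in double-letter animals alone, 168 in single-letter animals alone and 704 with no fold limit. In PB against LEV, 76 became 115, 24 (double-letter alone), 34 (all 14 VEH animals) and 581 (no fold limit). In LEV against VEH, 0 became 5 with DESeq2, 1 with no filter, 1 with a mean of at least 50, 5 with the treatment-by-form term, 13 after the subtraction, 170 in double-letter and 6 in single-letter animals alone, 2 with Hba1 as a covariate and 1 with no fold limit. Between code forms, 538 became 3946 with no fold limit. Higher and lower calls in PB against VEH were 45 and 34, but 45 and 57 with no filter and 57 and 28 with DESeq2. Without 1 animal the counts ran from 52 (PB animal 7) to 115 (PB animal 5) for PB against VEH, from 39 to 101 for PB against LEV (the same animals, with 50 without LEV animal 2) and from 0 to 4 (VEH animal 4) for LEV against VEH, where 9 other animals gave 1 to 3.

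Reversed were, in LEV against VEH in double-letter animals alone, Hbb-b1 (0.19), Hbb-bs (0.16), Hbb (0.14), Hba-a1 (0.12) and Hba1 (0.21). In PB against LEV, Hbb-bs reversed with DESeq2 (0.14), the treatment-by-form term (0.10), the subtraction (0.12), single-letter animals (0.75), all VEH animals (0.005) and Hba1 as a covariate (0.082). Without the form term Hbb (-0.32), Hba-a1 (-0.056) and Hba1 (-0.36) reversed, in double-letter animals Hbb (-0.47), Hba-a2 (-0.28), Hba-a1 (-0.30) and Hba1 (-0.48), and in single-letter animals Hbb-b1 (0.40). Without 1 animal, PB against LEV ran from -0.029 to 0.44 for Hba-a1, from -0.17 to 0.14 for Hba1, from -0.15 to 0.13 for Hbb and from -0.19 to 0.027 for Hbb-bs. None of these was called. With the means of treatment and form kept, r was 0.963 for Hba1 with Alas2, 0.344 for Hba1 with Cygb (reversed) and 0.398 for Hba1 with Ngb. The causes were not tested.

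The labels do not say whether equal animal numbers mark littermates. Of pairs with equal numbers, 3 of 13 VEH and PB, 3 of 13 VEH and LEV and 4 of 14 PB and LEV had a correlation over 0.1. Pairs with unequal numbers were not compared, so these counts cannot decide it. With the replicate block, 55 transcripts were called in PB against VEH, 0 in LEV against VEH and 63 in PB against LEV, Cygb gave -0.33, and Hbb (-0.032) and Hba1 (-0.10) reversed in PB against LEV. Hba-a1 had few counts, and the spread between animals set the precision of the other blood globins.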
